A study of Mus musculus with 12 samples.

Results

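The nuclear-encoded subunits of oxidative phosphorylation were followed in whole mouse lung after paraquat. All genes were taken whose symbol begins with Ndufa, Ndufb, Ndufc, Ndufs or Ndufv and a digit, is Sdha, Sdhb, Sdhc or Sdhd, or begins with Uqcr, Cox4 to Cox8 or Atp5, which gave 83 of the 20774 genes in the tables. By symbol, 37 belong to complex I, 4 to complex II, 8 to complex III, 17 to complex IV and 17 to complex V. The symbols and the complexes differ in a few cases: Ndufa4 is now counted with complex IV, Cox7a2l is a factor that joins complexes, and Atp5s and Atp5sl are named after complex V without being part of its main structure. The subunits encoded in mitochondrial DNA are not analysed here.

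The mice were wild-type C57BL/6J with an age label of 8 weeks, given 1 intratracheal instillation of paraquat (PQ), a herbicide, in saline, or saline alone. RNA of homogenized lung was sequenced in 12 libraries, 3 each of saline control 1w, PQ 1w, control 4w and PQ 4w, with the time labels read as weeks. No label says that the 3 replicates of a group are different animals, and the spread behind each p-value may be technical. How PQ altered the 5 complexes at each time, and whether its effect differed between the times, are the comparisons the design allows. Tests were edgeR's quasi-likelihood test over 15921 genes with Benjamini-Hochberg adjustment, n = 3 in each group, and a gene is written as having risen or fallen where its adjusted p was under 0.05. Levels are in CPM, counts scaled to a common library size, unless another unit is named, and ± marks a standard error beside a log2 effect and an SD beside a level.

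In the inner mitochondrial membrane, complexes I and II pass electrons from NADH and succinate to ubiquinone, complex III passes them on to cytochrome c, and complex IV passes them to oxygen. The proton gradient built by complexes I, III and IV drives complex V, the ATP synthase. Paraquat is known as a redox cycler that takes up electrons from cellular reductases and passes them to oxygen, giving superoxide, and the lung accumulates it. Several complex IV subunits have isoforms, among them Cox4i2, known as a lung isoform, and Cox6a2, Cox7a1 and Cox8b, which are typical of heart and skeletal muscle.

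Library totals lay between 17220978 and 18559809 counts, and the members together took 0.557 to 0.730% of them. Of the 83 members 82 were abundant enough to test. The exception was Cox7b2, an isoform known from testis, which was listed in 3 of 12 libraries with at most 1 count. Homogenized lung mixes many cell types, and fewer cells of a type cannot be told apart from less RNA per cell. PQ 4w replicate 3 stood apart from the other PQ 4w libraries: Scgb1a1, a secreted protein of club cells, took 2.08% of its counts against 3.29% and 4.19%. The summed level of 12 cardiac muscle markers was 640.1, 1136 and 164 CPM in PQ 4w replicates 1, 2 and 3. Results that rest on replicate 3 are given with and without it. PQ 4w replicate 1 stood apart in other markers. Its 6 alveolar type 1 markers summed to 2489.9 CPM, against 3773 and 4026 in replicates 2 and 3. Its 6 endothelial markers summed to 2373 CPM, against 3007 and 3029.

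Per length, the members were abundant. Over the 6 control libraries the median member stood at 63.4 FPKM (fragments scaled to transcript length and library depth) in complex I, 66.2 in complex II, 93.9 in complex III, 94.7 in complex IV and 137 in complex V. The highest in each complex were Ndufa4 at 181 FPKM, Sdha at 76.2, Uqcrh at 165, Cox6a1 at 325 and Atp5b, the catalytic beta subunit of the ATP synthase, at 287. The lowest were Ndufa11 at 11.1, Sdhd at 44.1, Uqcrq at 32.9, Cox7b2 at 0.033 and Atp5s at 3.65. No tested member other than Atp5s had a control mean under 10 FPKM.

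Promoters of respiratory chain genes are known for sites of NRF1 (nuclear respiratory factor 1), of the ETS family member GABP and of YY1. RefSeq promoters (GRCm38.p6, 250 bases before to 50 after the start) were found for 69 of the 83 members, 75 promoters in all. On either strand the letters GCGCANGCG (NRF1) stood in 28.0% of them, against 6.25% of all 32851 promoters. The letters CCGGAAG (ETS) stood in 21.3% against 8.86%, and AAGATGGCG (YY1) stood in 9 of the 75 against 1.40%. Neighbouring matches of different motifs can share up to 3 bases. The part of base composition in these shares was not tested. A choice of 9 matches, of members that rose, fell or had no call, is shown with flanks, 5′ to 3′ on the gene's strand, with the matched letters in capitals, so that members that moved differently can be set side by side.
Ndufa11, NRF1, chr17:56717692-56717721, plus strand: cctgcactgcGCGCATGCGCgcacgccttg
Ndufa8, NRF1, chr2:36049349-36049377, minus strand: tagagcagtgCGCTTGCGCgtcgctggag
Cox6a1, NRF1, chr5:115349101-115349130, minus strand: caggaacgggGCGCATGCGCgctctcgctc
Atp5k, NRF1, chr5:108434430-108434459, minus strand: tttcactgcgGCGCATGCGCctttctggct
Sdha, NRF1, chr13:74350277-74350305, minus strand: ggggcgtgttGCGCAGGCGcagaatcttc
Ndufb7, ETS, chr8:83566728-83566754, plus strand: cctagatgacCCGGAAGacactgaagg
Cox8a, ETS, chr19:7217605-7217631, minus strand: ttccgaaataCTTCCGGctcgggcgtc
Atp5sl, YY1, chr7:25619430-25619458, plus strand: gttacctggcAAGATGGCGgcgcccagag
Ndufs7, YY1, chr10:80249463-80249491, plus strand: ggccgaggccAAGATGGCGgcgctggcgg

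At 1w the subunits stood higher in PQ lung in every complex. Of the 82 tested members 55 rose, against 25.9% of all genes tested, 3 fell, against 22.9%, and 24 did not pass. The members' median effect was log2 0.29, a 1.22-fold difference, while the median of all genes was 0.00. The number that rose was 23 of 37 in complex I, 3 of 4 in complex II, 5 of 8 in complex III, 10 of 16 in complex IV and 14 of 17 in complex V. Effects were small and alike across complexes, with medians from 0.28 in complex I to 0.36 in complex V. The 3 that fell were Cox4i2, Ndufa4l2 and Atp5sl (Atp5sl named after its values were seen). Leaving out 1 library at a time gave 42 to 63 called members.

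At 4w the subunits stood lower in PQ lung, by less. None of the 82 rose, against 5.75% of all genes, and none did at an unadjusted p under 0.05 or by DESeq2. A fall was called for 21, against 6.39% of all genes, and 61 did not pass. At an unadjusted p under 0.05 the number lower was 56. The shares of all genes are at the adjusted p, and none is given here for the unadjusted one. The median effect was log2 -0.23, a fold of 0.855, against 0.00 over all genes. The number that fell was 10 in complex I, 0 in complex II (2 of its 4 at an unadjusted p under 0.05 and 1 by DESeq2), 2 in complex III, 5 in complex IV and 4 in complex V. The count of 21 moved with single libraries: 4 fell without PQ 4w replicate 1, 9 without PQ 4w replicate 3, and 5, 4 and 8 without control 4w replicates 1, 2 and 3. It was 13 without PQ 1w replicate 1, 7 with library totals in place of TMM scaling, and 4 with only the 4w groups in the fit, while no member rose at any of these settings.

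**Figure D1:**
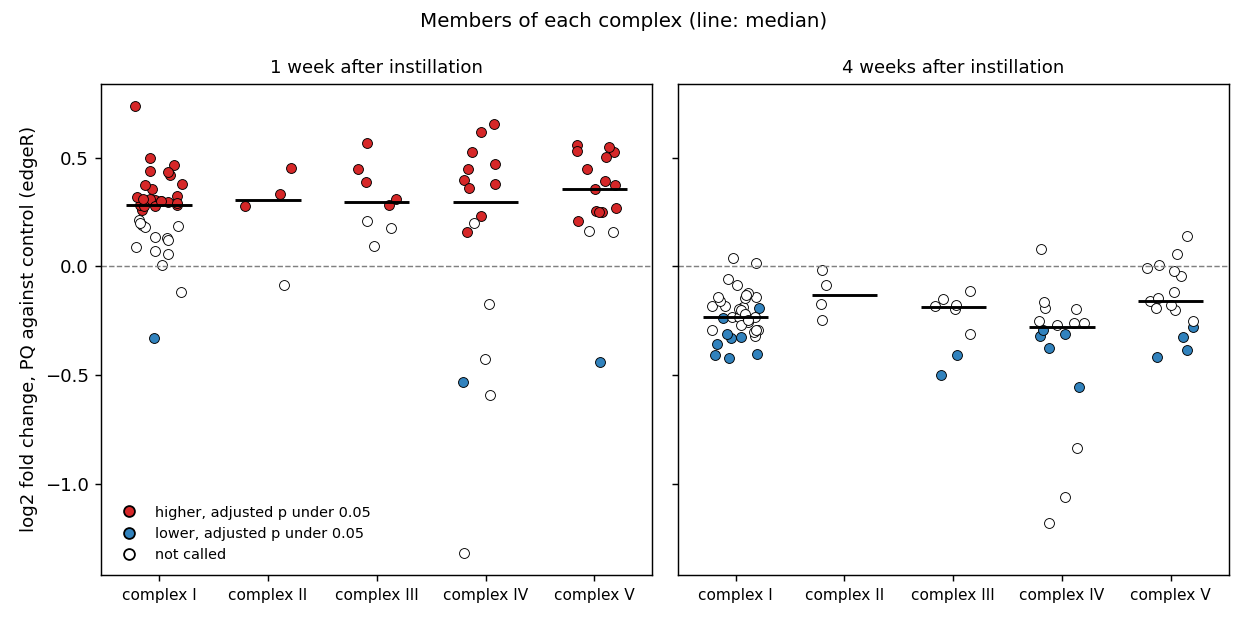
Log2 fold change of each tested member in PQ against control at 1 week (left) and 4 weeks (right), by complex, from edgeR; filled points passed an adjusted p of 0.05 and black lines are medians of each complex. At 1 week most points lie above 0 (medians 0.28 to 0.36), and at 4 weeks most lie below it (medians -0.28 to -0.13).

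Summed over members and scaled to the library total, the same order of groups appeared. All complexes together stood at 5688, 6117 and 5571 CPM in control 1w and at 7296, 6961 and 7115 in PQ 1w, a ratio of 1.23. The PQ 1w libraries were all above the control 1w libraries. In control 4w the sums were 6478, 7217 and 6638, and in PQ 4w 6184, 6549.7 and 5998, a ratio of 0.921 between groups that overlap. With TMM scaling, as in the tests, the 4w groups did not overlap, at 5753 to 6433 in PQ and 6653 to 7153 CPM in control, a ratio of 0.878, and neither did the sums of FPKM, with a ratio of 0.897. By complex, the ratio at 1w was lowest for complex II, at 1.11, and 1.20 to 1.26 for the others. By sums of FPKM it was 1.18 for complex II, next to 1.20 for complex I, and the median effect of the members at 1w was 0.31 in complex II and 0.28 in complex I. At 4w the ratio by library totals was 0.884 for complex IV, 0.897 for complex III and 0.900 for complex I, whose groups did not overlap, although in complex III the lowest control 4w library, at 597, was next to the highest PQ 4w library, at 596, and its sums of FPKM overlapped. It was 0.961 for complex V and 0.966 for complex II, whose groups did.

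**Figure D2:**
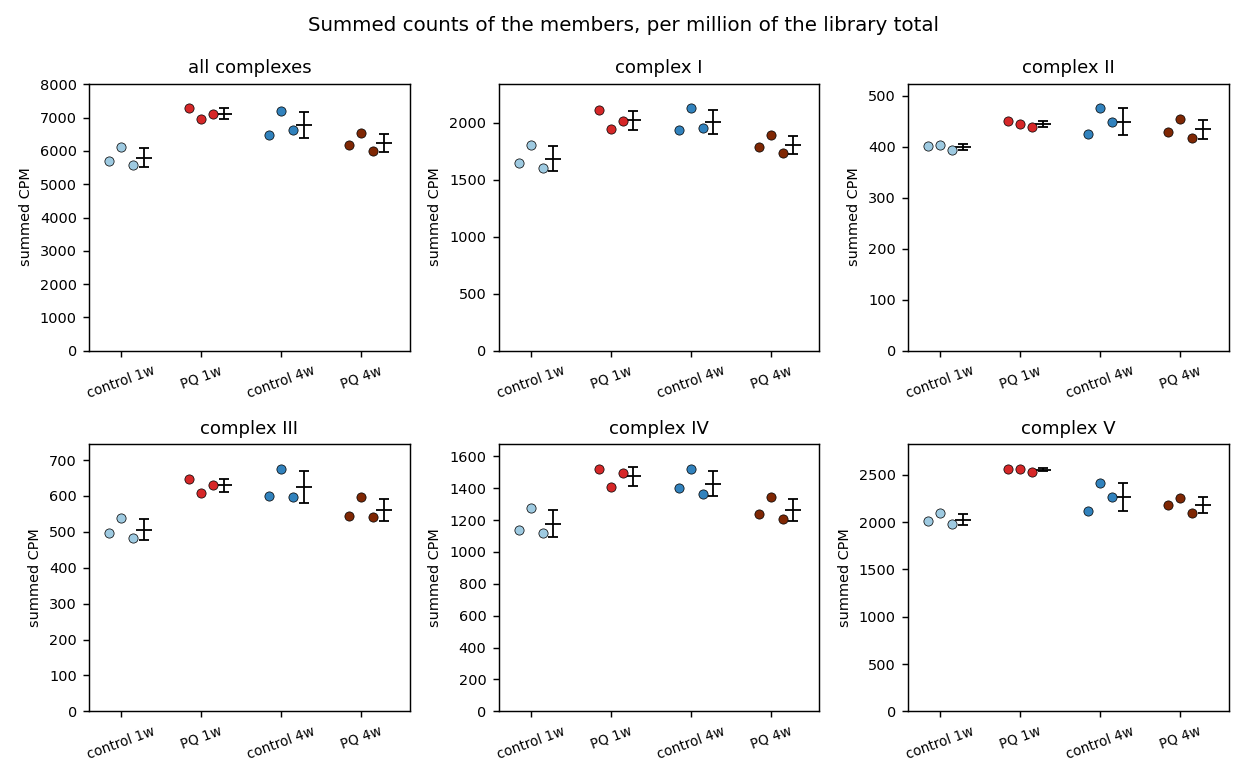
Summed counts of the members of all complexes and of each complex, as CPM of the library total, in each of the 12 libraries (points), with the mean and SD of the 3 libraries beside them (bars). Every PQ 1w library lies above every control 1w library, with means of 7124 and 5792 for all complexes, and the 4w groups lie closer together, at 6244 for PQ and 6778 for control.

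Marker transcripts of the cell types of the lung also differed with PQ, and their part in the subunit results was not tested. At 1w the 6 endothelial markers all fell, to a summed 2345 to 2807 CPM from 3747 to 4223. Of 8 alveolar type 2 markers 6 fell at 1w, with sums of 16959 to 18898 against 27284 to 33988 CPM, and 2 rose at 4w. Club cell markers summed to 4517 to 5575 CPM in PQ 1w, against 22283 to 31284 in control 1w, with 2 of 4 called lower. Of 5 fibroblast markers 3 rose and 1 fell at 1w, with sums of 10650.4 to 11863 against 2749 to 2902 CPM. At 4w all 6 endothelial markers again fell, to 2373 to 3029 from 3937 to 4309.6 CPM. Of 6 macrophage markers 4 rose and 1 fell at each time, Lyz2 at 1w and Marco at 4w. Most of their sum is Lyz2, and it was 3632 to 4073 in PQ 1w and 4786 to 5480.1 CPM in control 1w, and 4769 to 5705 and 4000.2 to 4108 at 4w. Of 5 neutrophil markers 2 fell at 1w and 4 at 4w, the latter with sums of 61.0 to 108 against 101 to 483 CPM, which overlap. Of 5 erythroid markers 4 fell at 1w, with sums of 579.7 to 1636 against 2892 to 4770.1 CPM. Of 6 alveolar type 1 markers 3 fell and 1 rose at 1w and 2 fell at 4w, with sums at 4w of 2489.9 to 4026 against 4751 to 5393 CPM.

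Complex I, the NADH dehydrogenase, gave the member with the smallest p at 1w. Ndufa11 (gene ID 69875, chr17:56717762-56724248), an accessory subunit of the membrane arm, was at 26.4, 27.4 and 27.6 CPM in control 1w and 46.7, 44.6 and 44.5 in PQ 1w. It rose 1.67-fold (log2 0.74 ± 0.08, adjusted p = 1.20e-05), and no PQ library was near a control. At 4w the same gene stood at 34.2, 31.6 and 34.0 in control and 30.2, 32.0 and 25.7 in PQ, overlapping groups with no call (log2 -0.18 ± 0.08, adjusted p = 0.152). Ndufv3, a small accessory subunit beside the flavoprotein, also rose at 1w, from 45.0, 49.1 and 46.1 to 65.8, 64.5 and 59.2 CPM (log2 0.43 ± 0.06, adjusted p = 1.44e-04).

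At 4w, Ndufa8 (gene ID 68375, chr2:36036324-36049338), an accessory subunit on the side of the intermembrane space, had the smallest p of complex I. It was at 49.8, 51.9 and 48.2 CPM in control 4w and 37.6, 43.2 and 38.5 in PQ 4w, a fold of 0.795 (log2 -0.33 ± 0.07, adjusted p = 0.0100). At 1w it had gone the other way, from 41.0, 44.2 and 41.3 to 55.2, 52.4 and 56.4 CPM (log2 0.37 ± 0.07, adjusted p = 6.69e-04), and the groups overlapped at neither time. Ndufs7 (gene ID 75406, chr10:80249105-80256794), the core subunit that holds the last iron-sulfur cluster before ubiquinone, fell at 4w from 67.2, 68.0 and 65.1 to 47.3, 54.6 and 49.2 CPM (log2 -0.41 ± 0.09, adjusted p = 0.0121). At 1w its PQ libraries, at 52.6, 46.4 and 47.4, overlapped the controls, at 46.7, 58.9 and 53.6 (log2 -0.12 ± 0.09, adjusted p = 0.277). Without control 4w replicate 1 the fall at 4w had an adjusted p of 0.0571.

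The core subunits of complex I, which carry the electrons, included members with no call. Ndufs1, the large iron-sulfur subunit, was at 62.1, 55.7 and 54.6 CPM in control 1w and 65.7, 69.5 and 64.7 in PQ 1w without a call (log2 0.21 ± 0.09, adjusted p = 0.0572), though it was called higher in 7 alternatives, among them the 1w groups alone and without control 1w replicate 1. Ndufv1, which binds NADH and the flavin, was at 73.8, 86.8 and 76.2 and 90.2, 83.8 and 84.0 CPM, also without one (log2 0.12 ± 0.07, adjusted p = 0.195). Of the 7 nuclear core subunits, a grouping by role made after the values were seen, 4 rose at 1w (median log2 0.30) and 2 fell at 4w (median -0.16). Of the 30 other members of complex I, 19 rose and 1 fell at 1w (median 0.28), and 8 fell at 4w (median -0.24).

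Complex II, succinate dehydrogenase, has its whole set of 4 subunits in the nucleus, and they did not move alike at 1w. Sdha (gene ID 66945, chr13:74322255-74350240), the flavoprotein that oxidizes succinate, was at 210.4, 206 and 212 CPM in control 1w and 199.9, 203 and 190.0 in PQ 1w. Each PQ value was below each control value by a little, and the change was not called (log2 -0.08 ± 0.06, adjusted p = 0.259). The membrane anchor Sdhd rose from 53.5, 59.0 and 49.7 to 74.4, 75.1 and 72.8 CPM (log2 0.45 ± 0.09, adjusted p = 9.17e-04). The other anchor, Sdhc, rose 1.26-fold (log2 0.34 ± 0.08, adjusted p = 0.00294), and the iron-sulfur subunit Sdhb rose 1.21-fold (log2 0.28 ± 0.07, adjusted p = 0.00808). For each of these 3 no PQ 1w library overlapped a control 1w library. At 4w none of the 4 was called, from Sdhc at -0.24 (adjusted p = 0.0541) to Sdhd at -0.01, and DESeq2 called Sdhc lower.

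In complex III, the cytochrome bc1 complex, 2 members, Uqcrq and Uqcr10, rose at 1w and fell at 4w. Uqcrq (gene ID 22272, chr11:53427922-53430831), a small subunit near the ubiquinone site, was at 42.3, 47.8 and 41.1 CPM in control 1w and 69.2, 61.6 and 64.0 in PQ 1w. It rose 1.48-fold (log2 0.57 ± 0.09, adjusted p = 2.83e-04). At 4w it was at 57.8, 60.5 and 53.0 in control and 39.7, 48.7 and 40.8 in PQ, and fell to a fold of 0.754 (log2 -0.41 ± 0.09, adjusted p = 0.0146). The groups overlapped at neither time, and the call at 4w was lost without PQ 4w replicate 1 or control 4w replicates 1 or 2, with adjusted p up to 0.0631 over all alternatives. Uqcr10, another small subunit (gene ID 66152, chr11:4701968-4704344), had the largest fall of a complex III member at 4w, from 59.7, 63.7 and 60.6 to 41.0, 47.4 and 41.8 CPM (log2 -0.50 ± 0.09, adjusted p = 0.00578). Every PQ 4w library was below every control 4w library. Uqcr10 was also called higher at 1w, a call lost without control 1w replicates 1 or 3 or PQ 1w replicates 1 or 3. The core protein Uqcrc1 rose at 1w from 94.7, 106 and 100.5 to 141, 134 and 135 CPM (log2 0.45 ± 0.06, adjusted p = 1.16e-04), and the Rieske iron-sulfur protein Uqcrfs1 rose 1.24-fold (log2 0.31 ± 0.08, adjusted p = 0.00644). Neither was called at 4w, with effects of -0.18 and -0.18.

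In complex IV, cytochrome c oxidase, the smallest p-values at 1w were those of Cox5a and Cox7b. Cox5a (gene ID 12858, chr9:57517328-57532427), a subunit on the matrix side, was at 52.5, 57.2 and 47.9 CPM in control 1w and 82.1, 80.9 and 85.0 in PQ 1w. It rose 1.57-fold (log2 0.65 ± 0.10, adjusted p = 1.48e-04). Cox7b (gene ID 66142, chrX:106015700-106022450), a small membrane subunit encoded on the X chromosome, rose from 45.2, 46.5 and 41.0 to 70.9, 64.6 and 67.8 CPM (log2 0.62 ± 0.09, adjusted p = 1.32e-04). At 4w neither was called (-0.25 and -0.17), and in both genes the groups overlapped.

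At 4w the smallest p-values in complex IV were those of Cox7c and Cox6a1. Cox7c (gene ID 12867, chr13:86044798-86046795), a small membrane subunit, was at 69.4, 83.2 and 76.4 CPM in control 4w and 60.6, 67.6 and 55.3 in PQ 4w, with no overlap (log2 -0.32 ± 0.08, adjusted p = 0.0267). Cox6a1 (gene ID 12861, chr5:115345652-115348958), the ubiquitous form of subunit VIa, was at 180.1, 168 and 172 and 119, 149 and 135 CPM (log2 -0.37 ± 0.10, adjusted p = 0.0266). At 1w Cox7c had risen (log2 0.38 ± 0.08, adjusted p = 0.00239), and Cox6a1 had not been called (log2 0.20 ± 0.10, adjusted p = 0.101). Of these 2 falls, that of Cox7c was lost without control 4w replicates 2 or 3 or PQ 4w replicates 1 or 3, with adjusted p up to 0.115 over all alternatives. That of Cox6a1 was lost without any 1 of the 3 control 4w libraries or PQ 4w replicate 1, with adjusted p up to 0.120 over all alternatives.

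In complex V, the ATP synthase, 14 of 17 members rose at 1w. Atp5f1 (gene ID 11950, chr3:105942698-105959263), subunit b of the peripheral stalk, was at 127, 131 and 119.7 CPM in control 1w and 175, 181 and 186 in PQ 1w. It rose 1.44-fold (log2 0.52 ± 0.06, adjusted p = 3.33e-05), and at 4w its groups overlapped (log2 -0.02 ± 0.06, adjusted p = 0.859). Atp5l, subunit g of the membrane part, rose from 77.8, 81.9 and 73.5 to 114, 106 and 111 CPM (log2 0.50 ± 0.07, adjusted p = 9.22e-05). The alpha and beta subunits of the catalytic head rose by less: Atp5a1 was at 408, 404 and 413 and 498, 502 and 459 CPM (log2 0.25 ± 0.07, adjusted p = 0.00837). Atp5b was at 530.4, 542 and 525 and 640.3, 651 and 609 CPM (log2 0.25 ± 0.07, adjusted p = 0.00905).

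Within complex V, grouped by role after the values were seen, all 5 subunits of the catalytic head rose at 1w with effects of 0.25 to 0.36. The 3 genes for subunit c, Atp5g1, Atp5g2 and Atp5g3, which encode the same mature protein of the membrane ring, all rose with effects of 0.53 to 0.56. The difference between these 2 groups of genes was not tested. At 4w, 2 of the 3 subunit c genes fell, Atp5g1 and Atp5g3. Atp5g3 (gene ID 228033, chr2:73908447-73912464) was at 127, 139.9 and 141 CPM in control 4w and 105, 125 and 94.6 in PQ 4w (log2 -0.33 ± 0.09, adjusted p = 0.0305). Atp5k (gene ID 11958, chr5:108433246-108434399), subunit e, was at 35.9, 37.5 and 32.8 and 26.1, 30.8 and 24.4 CPM (log2 -0.39 ± 0.10, adjusted p = 0.0279). The groups did not overlap in either gene. Both calls were lost without control 4w replicates 1 or 2, or PQ 4w replicates 1 or 3, with adjusted p up to 0.118 over all alternatives, and that of Atp5g3 also without control 4w replicate 3. The fall of Atp5g1 at 4w (log2 -0.42) was lost in 9 alternatives, with adjusted p up to 0.127. Among them were library totals and leaving out control 4w replicates 2 or 3 or PQ 4w replicates 1 or 3.

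Atp5sl, now known as an assembly factor of the membrane arm of complex I, went against the other genes with an Atp5 symbol. It was at 20.4, 22.4 and 22.3 CPM in control 1w and 15.5, 15.7 and 16.6 in PQ 1w, and fell (log2 -0.44 ± 0.08, adjusted p = 6.82e-04). At 4w it was at 25.6, 26.5 and 26.7 in control and 30.4, 26.1 and 30.2 in PQ, overlapping and not called. It was the only one of the 82 members whose PQ effect was called more positive at 4w than at 1w (log2 0.58 ± 0.11, adjusted p = 0.00222).

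Isoforms within a subunit did not share 1 pattern. Cox4i2 (gene ID 84682, chr2:152753916-152765039), the lung isoform of subunit IV, was at 62.9, 72.2 and 61.5 CPM in control 1w and 45.4, 41.8 and 48.5 in PQ 1w, and fell to a fold of 0.691 (log2 -0.53 ± 0.09, adjusted p = 5.15e-04). Its ubiquitous partner Cox4i1 rose from 172, 208 and 194 to 273, 244 and 265 CPM (log2 0.45 ± 0.09, adjusted p = 0.00140). Per length, Cox4i2 made up 26.3% ± 1.34 of the summed FPKM of both in control 1w and 15.3% ± 0.660 in PQ 1w. At 4w the share was 23.1% ± 1.69 in control and 22.7% ± 2.72 in PQ, where Cox4i2 was at 77.5, 66.9 and 64.9 and 61.1, 52.7 and 55.1 CPM (log2 -0.31 ± 0.09, adjusted p = 0.0469). That second call was lost with library totals, with the replicate number as a block, with no count filter and without any 1 library other than control 1w replicate 2, PQ 1w replicate 2 and PQ 4w replicate 1, with adjusted p up to 0.210 over all alternatives.

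Ndufa4l2, a paralogue of Ndufa4 known as a target of hypoxia-inducible factor, was another member that fell at both times. It was at 34.6, 43.5 and 43.1 CPM in control 1w and 31.2, 30.7 and 34.4 in PQ 1w (log2 -0.33 ± 0.11, adjusted p = 0.0211). This call was lost without control 1w replicates 2 or 3 or PQ 1w replicates 1 or 2. Its share of the summed FPKM with Ndufa4 was 20.9% ± 2.42 in control 1w and 14.1% ± 1.08 in PQ 1w, as Ndufa4 rose (log2 0.35 ± 0.10, adjusted p = 0.00928). At 4w Ndufa4l2 was at 49.6, 38.2 and 42.1 in control and 34.8, 33.6 and 33.0 in PQ (log2 -0.36 ± 0.11, adjusted p = 0.0469), and Ndufa4 also fell (log2 -0.33 ± 0.10, adjusted p = 0.0469). Both calls at 4w were lost with library totals and without any 1 of 10 libraries, with adjusted p over all alternatives up to 0.215 for Ndufa4l2 and 0.191 for Ndufa4. The 6 endothelial markers fell at both times as well. Of 6 pericyte markers 3 rose and 0 fell at 1w (median log2 0.17). At 4w 0 were called (median 0.12), with 1 higher by DESeq2. The part of either list in this was not tested.

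Cox6b2, an isoform known from testis, fell at 4w from 10.9, 11.6 and 8.22 to 6.27, 7.31 and 7.30 CPM (log2 -0.56 ± 0.15, adjusted p = 0.0374), which was lost without replicates 1 or 2 of control 4w, PQ 4w or PQ 1w, with adjusted p up to 0.142 over all alternatives. Its partner Cox6b1 was much more abundant, at 262 ± 20.5 against 19.7 ± 3.21 FPKM in control 4w, and was not called at 4w (log2 -0.27 ± 0.08, adjusted p = 0.0595), though DESeq2 called it lower, as did edgeR without control 1w replicate 2. The ubiquitous partners Cox7a2 and Cox8a rose at 1w (0.47 and 0.23), and Cox8a fell at 4w (log2 -0.29 ± 0.08, adjusted p = 0.0345). The call of Cox8a at 1w was lost without control 1w replicates 1 or 3 or PQ 1w replicates 1 or 3, and that at 4w without any 4w library other than PQ 4w replicate 2 and without PQ 1w replicates 1 or 3.

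The muscle isoforms were highest in control 4w. Cox8b (gene ID 12869, chr7:140898942-140900446) was at 2.55, 1.08 and 1.17 CPM in control 1w, 0.0550, 0.817 and 1.04 in PQ 1w, 4.11, 9.22 and 8.05 in control 4w and 4.01, 3.99 and 1.43 in PQ 4w. Cox7a1 was at 2.72, 1.31 and 1.34, 0.935, 1.42 and 1.20, 4.92, 12.7 and 10.1 and 4.51, 7.14 and 1.65 CPM in the same order. Cox6a2 was at 12.8, 11.1 and 8.80, 6.88, 9.26 and 8.18, 19.3, 38.2 and 27.6 and 15.8, 21.9 and 9.99 CPM. With all 4 groups in edgeR and no covariate, none of these 3 was called in PQ against control at either time. Cox6a2 was called lower at 1w with only the 1w groups in the fit (log2 -0.44). At 4w it was called lower by DESeq2 (log2 -0.82), with the replicate block and without PQ 4w replicate 2. In control 4w against control 1w all 3 rose: Cox7a1 (log2 2.37 ± 0.49, adjusted p = 0.0223), Cox8b (log2 2.15 ± 0.54, adjusted p = 0.0333) and Cox6a2 (log2 1.38 ± 0.28, adjusted p = 0.0219). Each of these calls was lost without control 1w replicate 3 or control 4w replicates 2 or 3, and that of Cox8b also without control 1w replicates 1 or 2, with adjusted p up to 0.955 for Cox8b, 0.749 for Cox7a1 and 0.635 for Cox6a2 over all alternatives, the highest with the cardiac covariate.

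The 12 cardiac muscle markers summed to 339.8, 60.6 and 101 CPM in control 1w, 74.5, 266 and 226 in PQ 1w, 645, 1817 and 1433 in control 4w and 640.1, 1136 and 164 in PQ 4w. Of the 11 that could be tested, 10 rose in control 4w against control 1w. The low library of the PQ 4w group, replicate 3, was also the lowest of its group for Cox6a2, Cox7a1 and Cox8b. Skeletal muscle markers summed to at most 46.9 CPM in any library and brown adipose markers to at most 11.9. With the cardiac sum of each library as a covariate, an alternative chosen after the marker levels were seen, 56 members were called higher and 6 lower at 1w, and 15 lower at 4w. The 3 further lower calls at 1w were Cox8b (log2 -1.54, adjusted p = 0.00509), Cox7a1 (log2 -0.76, adjusted p = 0.0228) and Cox6a2 (log2 -0.55).

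**Figure D3:**
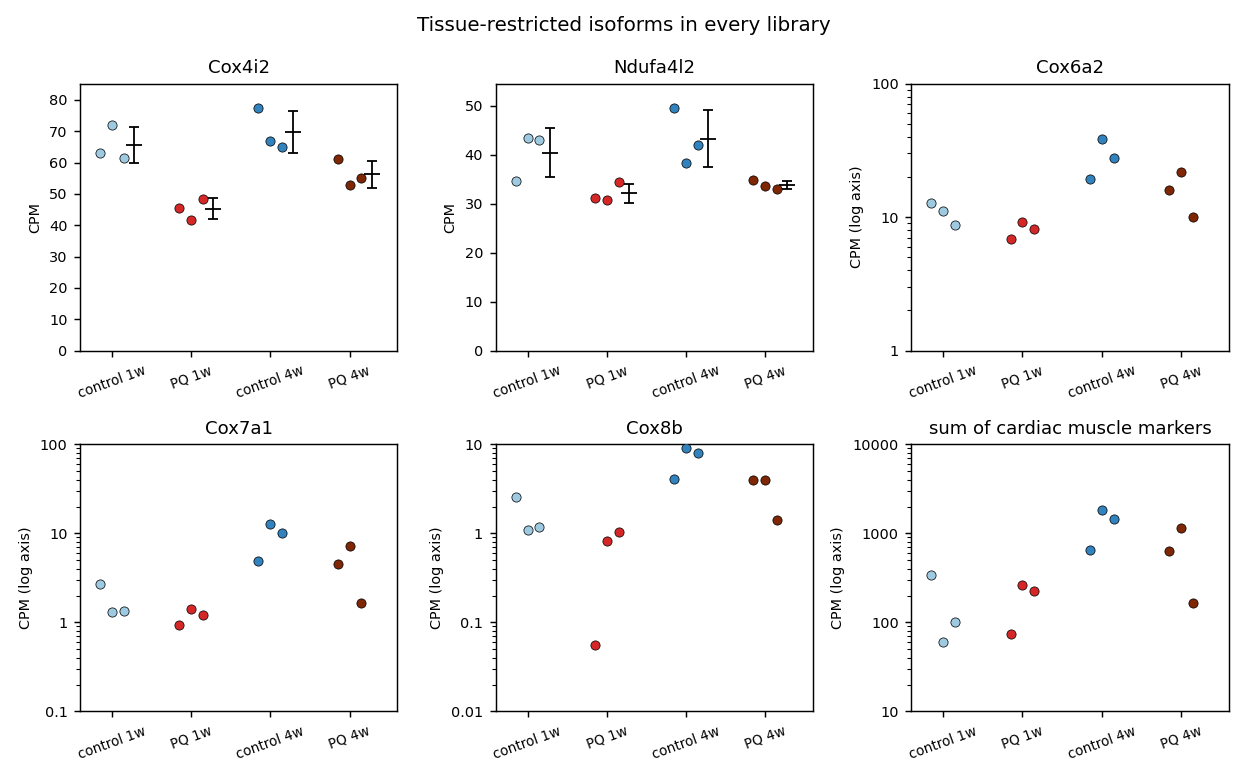
CPM of the isoforms Cox4i2 and Ndufa4l2 (linear axes, bars for mean and SD of 3 libraries) and of the muscle isoforms Cox6a2, Cox7a1 and Cox8b with the summed cardiac muscle markers (log axes) in each library. Cox4i2 and Ndufa4l2 are lower in PQ than in control at both times, and the muscle isoforms are highest in control 4w, as are the cardiac markers.

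The saline controls themselves differed between the times. In control 4w against control 1w 33 members rose, against 5.9% of all genes, and 0 fell, against 4.2%. The numbers were 57 and 0 at an unadjusted p under 0.05, and 32 and 0 by DESeq2. The shares of all genes belong to the adjusted p of edgeR only. The median effect was log2 0.25. Marker transcripts differed between the controls too: 10 of 11 cardiac and 2 of 4 club cell markers rose, and 4 of 6 macrophage, 3 of 8 alveolar type 2, 2 of 5 fibroblast and 2 of 5 erythroid markers fell. Club cell sums were 45856 to 54712 in control 4w and 22283 to 31284 CPM in control 1w. Their part in the rise of the members was not tested. By complex the rises numbered 14 of 37, 0 of 4, 5 of 8, 8 of 16 and 6 of 17 for complexes I to V. Single libraries decided this count: it was 6 and 2 without control 1w replicates 1 and 3, and 11, 2 and 3 without control 4w replicates 1, 2 and 3. It was 21 and 16 without PQ 1w replicates 1 and 3. With the cardiac covariate 0 members were called in this comparison, and of all 15921 genes 2 were, against 1609 without it, and the members' median effect was 0.25. Uqcr10 rose from 39.5, 49.5 and 41.2 to 59.7, 63.7 and 60.6 CPM (log2 0.50 ± 0.09, adjusted p = 0.0188) and Cox7b from 45.2, 46.5 and 41.0 to 62.2, 71.8 and 60.4 (log2 0.55 ± 0.09, adjusted p = 0.0111). Of these 2 calls, that of Uqcr10 was lost without control 1w replicate 3 or control 4w replicates 2 or 3.

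From 1w to 4w after PQ most members came down. In PQ 4w against PQ 1w 52 members fell, against 27.8% of all genes, and 7 rose, against 26.7%, with a median effect of log2 -0.28. The 7 that rose included Cox4i2, Sdha and the muscle isoforms Cox6a2, Cox7a1 and Cox8b. The rise of Sdha was lost without replicates 1 or 3 of either 1w group or PQ 4w replicates 2 or 3 (adjusted p up to 0.140 over all alternatives), that of Cox6a2 without PQ 1w replicate 1 or PQ 4w replicate 2, and that of Cox4i2 without PQ 1w replicate 2 or PQ 4w replicate 1. Ndufa11 fell by 0.63 on the log2 scale (standard error 0.08, adjusted p = 3.94e-05), and Atp5f1 by 0.38 (standard error 0.06, adjusted p = 3.23e-04). Without PQ 4w replicate 3, 47 fell and 6 rose.

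The PQ effect differed between the times when the difference itself was tested. For 64 members the effect at 4w was lower than at 1w, against 17.9% of all genes, and for 1 it was higher, against 14.1%, with a median difference of log2 -0.49. By complex the lower differences numbered 30 of 37, 3 of 4, 6 of 8, 10 of 16 and 15 of 17 for complexes I to V. The difference holds the change in the controls as well as that after PQ, and the comparisons share these groups. Among the members named by rule it was largest for Uqcrq (log2 -0.98 ± 0.13, adjusted p = 2.58e-04), followed by Ndufa11 (log2 -0.92 ± 0.11, adjusted p = 1.60e-04) and Cox5a (log2 -0.90 ± 0.14, adjusted p = 5.39e-04). The effects of Sdha at both times were nearly equal, with a difference that was not called (log2 -0.00 ± 0.08, adjusted p = 0.984). The count of called members was 58 without PQ 4w replicate 3 and between 54 and 65 without any 1 library.

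Seen by gene, 15 members rose at 1w and fell at 4w, 40 rose at 1w with no call at 4w, and 4 fell at 4w with no call at 1w. Cox4i2 and Ndufa4l2 fell at both times, and Atp5sl fell at 1w with no call at 4w. The 4 with a call at 4w and none at 1w were Ndufs7, Cox6a1, Cox6b2 and Ndufb4, the last named after its values were seen. The fall of Ndufb4 was lost in 8 alternatives, among them without any 1 control 4w library or PQ 4w replicate 1 (adjusted p up to 0.0962 over all alternatives), and it was called higher at 1w in 5, among them library totals and without replicate 2 of either 1w group. Cox6a1 was called higher at 1w without control 1w replicate 2. The other 20 were called at neither time. Over all genes, 0.773% rose at 1w and fell at 4w, 22.1% rose at 1w with no call at 4w, and 2.33% fell at 4w with no call at 1w. Falls at both times were called for 3.28% of all genes, falls at 1w alone for 18.8%, and 47.0% had no call at either time. The 2 members that fell at both times were 2.44% of those tested, below the share of all genes. The group with the highest mean was PQ 1w for 48 members (37.2% of all genes), control 4w for 29 (19.7%), PQ 4w for 4 (24.2%) and control 1w for 1 (18.9%). The lowest mean was in control 1w for 47 members (21.1% of all genes), in PQ 4w for 27 (22.1%), in PQ 1w for 8 (37.4%) and in control 4w for 0 (19.4%). Members of under 1000 bases and of 1000 bases or more had median effects of 0.28 and 0.29 at 1w and of -0.27 and -0.14 at 4w.

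Members can also be set side by side by the letters in their promoters. With the NRF1 letters 13 of 20 tested members rose at 1w (median log2 0.37) and 6 fell at 4w (median -0.21). Without them 34 of 48 rose (median 0.28) and 11 fell (median -0.22). For the ETS letters 13 of 16 with and 34 of 52 without rose at 1w, with medians of 0.30 and 0.29. For the YY1 letters 6 of 8 with and 41 of 60 without rose, with medians of 0.28 and 0.30. Sdha, which has 3 NRF1 matches, was not called at either time, while Ndufa11 and Atp5k, with 1 each, rose at 1w. Ndufb7, which has the ETS letters and was named after its values were seen, stood at 40.6, 49.3 and 38.2 CPM in control 1w, 60.7, 52.5 and 53.2 in PQ 1w, 54.1, 59.1 and 53.4 in control 4w and 38.0, 43.7 and 42.7 in PQ 4w, and was called higher at 1w and lower at 4w (log2 0.38 and -0.42). Its call at 4w was lost without control 4w replicates 1 or 2 or PQ 4w replicate 1.

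Subunits and carriers that the symbols miss followed the members at 1w. All 6 rose, among them Cyc1, the cytochrome c1 of complex III, from 66.2, 65.1 and 61.9 to 82.2, 80.7 and 80.5 CPM (log2 0.33 ± 0.06, adjusted p = 5.09e-04). The ATP synthase inhibitor Atpif1 rose 1.56-fold (log2 0.64 ± 0.09, adjusted p = 1.32e-04), and Ndufab1, the acyl carrier protein of complex I, rose 1.33-fold (log2 0.41 ± 0.07, adjusted p = 6.82e-04). Of the 6, Cyc1 alone fell at 4w (log2 -0.22 ± 0.06, adjusted p = 0.0297), a call lost without control 4w replicates 2 or 3, PQ 4w replicates 1 or 3 or PQ 1w replicate 1 (adjusted p up to 0.127 over all alternatives). Of 46 tested assembly factors of the complexes, 9 rose and 2 fell at 1w (median log2 0.14), and 4 fell at 4w, to be read against 25.9% of all genes higher at 1w and 6.39% lower at 4w. Uqcc2, which assembles complex III, rose at 1w (log2 0.55 ± 0.10, adjusted p = 8.62e-04) and fell at 4w (log2 -0.43 ± 0.10, adjusted p = 0.0201), the latter lost without PQ 4w replicate 1 or any 1 control 4w library. Surf1, which assembles complex IV, fell at 1w (log2 -0.33 ± 0.06, adjusted p = 0.00106).

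The other mitochondrial lists moved to different degrees at 1w. Of 77 mitochondrial ribosomal proteins 37 rose and 1 fell (median 0.25), and of 15 genes of import and the outer membrane 9 rose and 1 fell (median 0.35), such as the prohibitin Phb2 (log2 0.48 ± 0.05, adjusted p = 8.96e-06). Of 16 tricarboxylic acid cycle genes 5 rose, a share near the 25.9% of all genes, with the smallest p for citrate synthase, Cs, at 153, 150.2 and 144 CPM in control 1w and 199, 194 and 194 in PQ 1w (log2 0.39 ± 0.05, adjusted p = 7.61e-05). At 4w these lists had 3, 1 and 0 falls and no rise. The falls were 3.90%, 6.67% and 0% of the tested genes, near or below the 6.39% of all genes. At an unadjusted p under 0.05 they had 21, 5 and 3 lower and 0 higher, with no share of all genes at that threshold given here. By DESeq2 they had 3, 1 and 1 lower. Of 15 tested regulators of mitochondrial biogenesis 3 rose and 1 fell at 1w, no more than the shares over all genes: the transcription factor Myc rose 2.57-fold (log2 1.36 ± 0.10, adjusted p = 8.58e-07), and the mitochondrial DNA polymerase Polg fell (log2 -0.32 ± 0.07, adjusted p = 0.00319). The nuclear receptor Esrra rose (log2 0.27 ± 0.07, adjusted p = 0.00858). At 4w Myc alone of these was called (2 higher and 1 lower at an unadjusted p under 0.05), higher by 0.48 (adjusted p = 0.0132), a call lost with only the 4w groups in the fit (adjusted p = 0.0703).

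Most genes of 2 lists from outside the mitochondrion also rose at 1w. Of 81 tested cytosolic ribosomal proteins 63 rose (median 0.33), and of 15 glycolysis genes 12 rose (median 0.39), with Gapdh 2.22-fold higher (log2 1.15 ± 0.07, adjusted p = 1.98e-07). At 4w the ribosomal list had 1 rise and 1 fall with a median of 0.01, and the glycolysis list had 0 of either (2 higher and 1 lower at an unadjusted p under 0.05, 2 higher by DESeq2) with a median of 0.04, beside -0.23 for the members. Differences between lists were not tested.

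**Figure D4:**
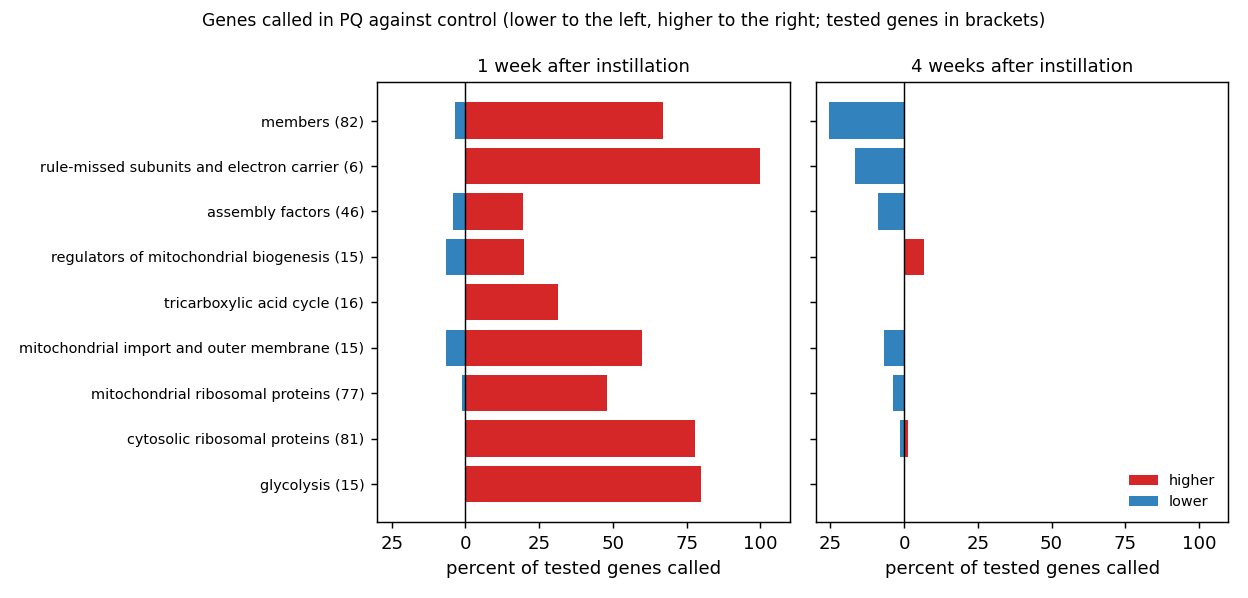
Percent of the tested genes of each list called higher (right of 0) or lower (left of 0) in PQ against control at 1 week and 4 weeks, with the number of tested genes in brackets. At 1 week 55 of 82 members, 63 of 81 cytosolic ribosomal and 12 of 15 glycolysis genes were called higher, and at 4 weeks 21 members were called lower against 0 of 15 glycolysis genes.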

How the data were processed

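RNA of whole mouse lung was sequenced in 12 libraries. Per the submitters' processing notes, reads were aligned with HISAT to mm10 and counted with RSEM 1.2.12. Not given in the sources used here were the HISAT version, the annotation release and the use of strand. Per the file headers, the authors deposited expected counts and FPKM per gene for each library. Of the listed expected counts 69.7% were whole numbers. A gene missing from a library's table was taken as 0. RSEM splits reads between near-identical copies, so members with processed pseudogenes carry that uncertainty, and without stated strand antisense reads could not be separated. The length used by RSEM varied between libraries for 17 members.

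Expected counts, as deposited by the authors, were rounded to whole numbers. Genes were kept by filterByExpr (minimum count 10, minimum total 15), and libraries were scaled by TMM (factors 0.974 to 1.06). The factors of PQ 4w replicates 1, 2 and 3, at 1.06, 1.02 and 1.04, were above those of every other library. All 4 groups were fitted at once in edgeR 4.0.16 (R 4.3.3) by quasi-likelihood, with p-values adjusted over 15921 genes. Standard errors are approximate, the effect over the square root of F. The fit was tested on simulated data. FPKM, as deposited, served for levels per length and isoform shares. Tables were made in Python 3.11.15 with pandas 2.3.3 and numpy 2.4.6, and plots with matplotlib 3.10.9.

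The members and all gene lists were chosen with earlier results of these data known. The lists held subunits missed by symbol, assembly factors, regulators of mitochondrial biogenesis, the tricarboxylic acid cycle, mitochondrial import, mitochondrial and cytosolic ribosomal proteins, glycolysis, and markers of cell types. Genes were named by rule: in each complex the 2 called members with the smallest p in PQ against control at each time, every tested member called with an absolute log2 change of at least 1, the isoform pairs, the 4 Sdh genes, and Ndufs1, Ndufv1, Uqcrc1, Uqcrfs1, Cox5a, Atp5a1 and Atp5b. At most 3 called genes of each other list were named. Gene positions and promoter letters are from RefSeq tables of GRCm38.p6, matched by gene ID and symbol.

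Alternatives were library totals, DESeq2 size factors, no count filter, DESeq2 1.42.0, limma 3.58.1 on log2(FPKM + 0.1) and log2(FPKM + 1), the replicate number as a block, only the compared groups in the fit, each library left out, and the cardiac marker sum as a covariate, the last chosen after seeing the data.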

Additional observations from a re-analysis of the deposited data

Results flagged for a closer look

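For 27 of the members named by rule the PQ effect at 4w differed from that at 1w, and for each of them it was lower at 4w. The rule chose members in part by their p at 1w and at 4w, from the same effects that make up this difference. The 27 are therefore no separate support for it. Of all genes tested, 17.9% had a lower effect at 4w and 14.1% a higher one. Atp5sl, named after its values were seen, is not among the 27 and went the other way. The difference was tested in edgeR as an interaction over all genes (n = 3 in each group). The values are log2 differences between the 2 effects. In complex I they were -0.92 for Ndufa11, -0.70 for Ndufa8, -0.68 for Ndufa4, -0.57 for Ndufv3, -0.37 for Ndufv1 and -0.36 for Ndufs1. In complex II they were -0.58 for Sdhc, -0.47 for Sdhd and -0.45 for Sdhb. In complex III they were -0.98 for Uqcrq, -0.78 for Uqcr10, -0.62 for Uqcrc1 and -0.49 for Uqcrfs1. In complex IV they were -0.90 for Cox5a, -0.78 for Cox7b, -0.71 for Cox4i1, -0.70 for Cox7c, -0.66 for Cox6b1, -0.66 for Cox7a2, -0.57 for Cox6a1 and -0.52 for Cox8a. In complex V they were -0.87 for Atp5g3, -0.83 for Atp5k, -0.65 for Atp5l, -0.55 for Atp5f1, -0.37 for Atp5b and -0.29 for Atp5a1. The difference was lost in 14 alternatives for Atp5a1 (adjusted p up to 0.0907) and for Ndufs1 (adjusted p up to 0.103). For Ndufv1 it was lost without control 4w replicates 2 or 3 or PQ 1w replicate 1 (adjusted p up to 0.0586). Groups of 3 libraries are too small for the test of single outlying libraries.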

How the results depend on the processing

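No called effect of a named gene changed its direction under any alternative. The directions of other genes were not compared gene by gene. At 4w, 21 members were called, and 7 with library totals, 9 with limma on log2(FPKM + 0.1), 9 with limma on log2(FPKM + 1) and 4 with only the 2 groups compared in the fit. All of these were among the 21, and the cause was not tested. With library totals the median effect at 4w was log2 -0.16 for the members and 0.08 for all genes. The other alternatives gave 15 to 27, and leaving out 1 library gave 4 to 25. In control 4w against control 1w, 33 members were called, 2 to 33 with 1 library left out, and 0 with the cardiac marker sum as a covariate, chosen after seeing the data, which left 2 of all 15921 genes called. The 58 members called at 1w became 42 to 63 with 1 library left out, the 65 of the interaction 54 to 65, and the 59 of PQ 4w against PQ 1w 43 to 62. With the replicate number as a block the counts were 59 at 1w, 18 at 4w, 66 for the interaction, 59 for PQ 4w against PQ 1w and 26 for the controls. No pairing by replicate number was seen: correlations of same-numbered libraries ran from -0.35 to 0.28, and not every library correlated best with its own number. With groups of 3 libraries this check is weak and cannot exclude pairing. Among effects of single named genes, 169 of 2816 values under other settings lost their call and 30 gained one. With 1 library left out 337 of 3840 lost it and 22 gained one. The totals also hold effects that had no call to lose, so they do not give the share of calls that were lost. Depth was alike in all libraries, at 17220978 to 18559809 counts, and Cox7b2, with at most 1 count in a library, could not be tested at this depth.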
